A study of Mus musculus with 4 samples.

Results

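The genes described are the small nuclear RNA (snRNA) genes of the mouse other than U6, which encode the RNA parts of the spliceosome and, in the case of U7, of the machinery that cuts histone pre-mRNA. They were chosen as every gene of type snRNA in GENCODE release M1 on the mm9 build whose symbol is U1, U2, U4, U5, U7, U11, U12 or U4atac, which gave 438 of 37310 annotated genes, with 206 of U1, 51 of U2, 43 of U4, 10 of U5, 116 of U7, 5 of U11, 6 of U12 and 1 of U4atac. The rule used gene type and symbol and no measurement, though it was set with earlier results of these data known. A gene of this annotation may be a transcribed gene or one of the many degenerate copies that snRNAs have left in the genome, and the types other than U7 are spliceosomal, so the label spliceosomal does not cover the 116 U7 genes. The genes were 46 to 199 bases long, with a median of 147.

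The regions at these genes came from bioChIP-seq in mouse embryonic stem cells (ESCs), in which Wapal, a cohesin-associated protein, carries a Flag and biotin tag (FB Wapal), is biotinylated by the bacterial ligase BirA and is pulled down with streptavidin. The libraries were those of 2 independently derived clones expressing FB Wapal in BirA cells, of 1 line expressing BirA with no tagged Wapal, which is the negative control, and of 1 input of sheared genomic DNA, labelled as from cells with biotinylatable Wapal. Regions of the ChIP libraries were called against the input by the authors and are given as 1 list of 266 regions for BirA and 1 list of 8497 regions that joins both FB Wapal clones. There is therefore no spread between replicates, no test was made, the lists hold no read counts behind a region, and both lists share the same input.

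Most snRNA genes are transcribed by RNA polymerase II from short promoters of their own kind, with a proximal sequence element bound by the SNAPc complex just upstream of the gene and, further upstream, a distal sequence element that often holds an octamer bound by Oct-1. A 3' box downstream of the gene directs cutting of the transcript by the Integrator complex, and there is no poly(A) tail. U1 pairs with the 5' splice site, U2 with the branch site, and U4, U5 and U6 join them as a tri-snRNP, in which U5 holds the exons, while U11, U12 and U4atac serve the rare minor introns.

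The RNAs of 3 genes with a BirA region show what is encoded there, as RNA sequence written with T, with the functional stretch in capitals. In U1 it is the start that pairs with the 5' splice site, in U2 the stretch that pairs with the branch site and in U7 the site bound by its Sm ring.
U1, chr11:87236369-87236532, plus strand: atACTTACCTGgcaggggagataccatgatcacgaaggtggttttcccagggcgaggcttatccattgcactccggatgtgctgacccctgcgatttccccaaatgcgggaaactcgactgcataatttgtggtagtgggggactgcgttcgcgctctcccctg
U2, chr11:101488680-101488870, plus strand: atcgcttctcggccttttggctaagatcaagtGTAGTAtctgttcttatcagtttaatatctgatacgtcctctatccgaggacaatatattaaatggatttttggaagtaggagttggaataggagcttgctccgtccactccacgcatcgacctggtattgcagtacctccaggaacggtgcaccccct
U7, chr6:124691243-124691304, minus strand: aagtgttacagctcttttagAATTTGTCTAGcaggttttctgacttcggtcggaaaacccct

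A BirA region lay within 2 kb of 23 of the 438 genes (5.25%, 95% Wilson interval 3.52 to 7.76%), where 0.657% of all 37310 annotated genes had one. The U5 genes, at 7 of 10 (70%, 39.7 to 89.2%), and the U2 genes, at 6 of 51 (11.8%, 5.51 to 23.4%), held most of them. The U1 genes had 4 of 206 (1.94%), the U4 genes 2 of 43 (4.65%), the U7 genes 1 of 116 (0.862%), the U11 genes 1 of 5, the U12 genes 1 of 6, and the single U4atac gene had one. Every type was thus represented in a list made from cells without tagged Wapal. Of the other small RNA genes, 0.641% of the 936 U6 genes, 0.838% of the 1552 snoRNA genes and 0.761% of the 1577 miRNA genes had a BirA region, close to the share of all genes. The share was 3.57% for the U6atac genes (1 of 28) and 4.76% for the remaining snRNA genes (1 of 21), each resting on a single gene. The intervals cover counting error only, and gene copies of 1 type share sequence and are not replicates.

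**Figure D1:**
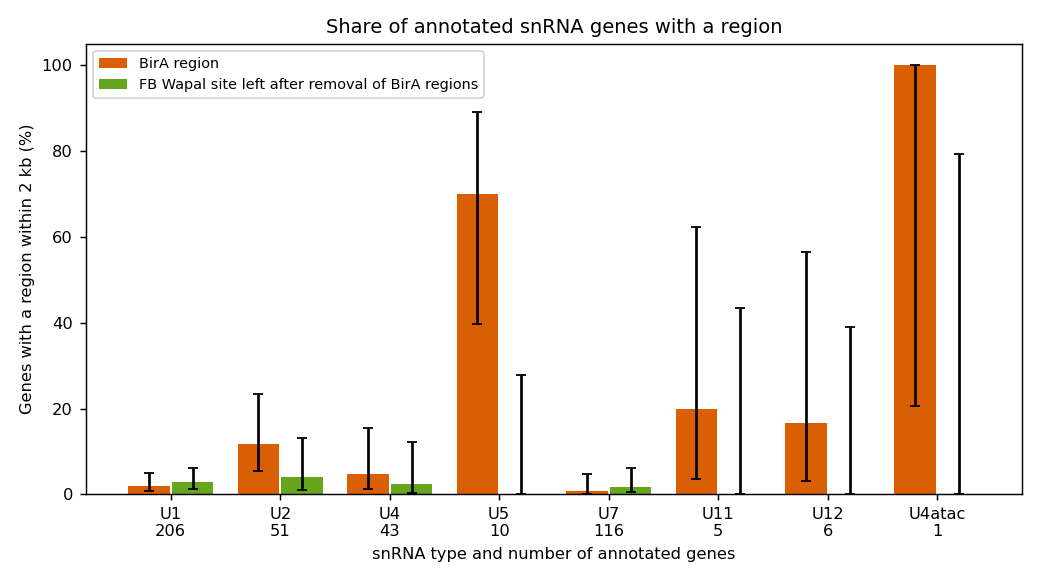
Share of annotated snRNA genes, in percent, with a BirA region (orange) or with an FB Wapal site left after removal of BirA regions (green) within 2 kb, by type, with the number of genes under each type and 95% Wilson intervals as bars. U5 stands at 70% for BirA and at 0.0% for the sites left.

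In the FB Wapal list a region lay within 2 kb of 32 of the snRNA genes (7.31%, 5.22 to 10.1%), beside 10.4% of all annotated genes and 14.6% of protein-coding genes, which are longer. The shares of other small RNA genes were lower, at 2.14% for U6, 3.29% for snoRNAs, 2.47% for miRNAs and 2.67% for genes of type misc_RNA. Of these 32 genes, 21 also had a BirA region. FB Wapal regions that overlapped a BirA region by 1 bp or more were then removed. The authors also subtracted the BirA regions, by a rule that is not stated. The number of sites they reported differs from the 8323 left here. A site remained at 11 genes (2.51%, 1.41 to 4.44%), beside 10.0% of all genes, 1.71% of U6 genes, 2.71% of snoRNA genes and 1.84% of miRNA genes. They were 6 U1, 2 U2, 1 U4 and 2 U7 genes, and no U5, U11, U12 or U4atac gene had one. This count rests on the removal rule: where BirA regions had to cover at least 50% of an FB Wapal region for its removal, a site remained at 20 genes, among them 6 U2, 3 U5 and 1 U12 genes.

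The BirA regions at snRNA genes were among the stronger ones of their list. The MACS score, 10 times −log10 of a region's p-value, was compared only within a list. It had a median of 122 (50.9 to 381) over the 27 regions at snRNA genes and of 64.9 over the 239 elsewhere. Ranked by score, 6 of the top 10 BirA regions and 10 of the top 20 lay at snRNA genes. The regions were also wider, with a median width of 581 bp beside 441 bp. The 31 FB Wapal regions at snRNA genes had a median score of 120 and a median width of 1360 bp, beside 81.8 and 813 bp for the 8466 elsewhere, and none was among the top 20 of that list. An overlap with the other list was found for 24 of the 27 BirA regions (88.9%), beside 166 of 239 elsewhere (69.5%).

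**Figure D2:**
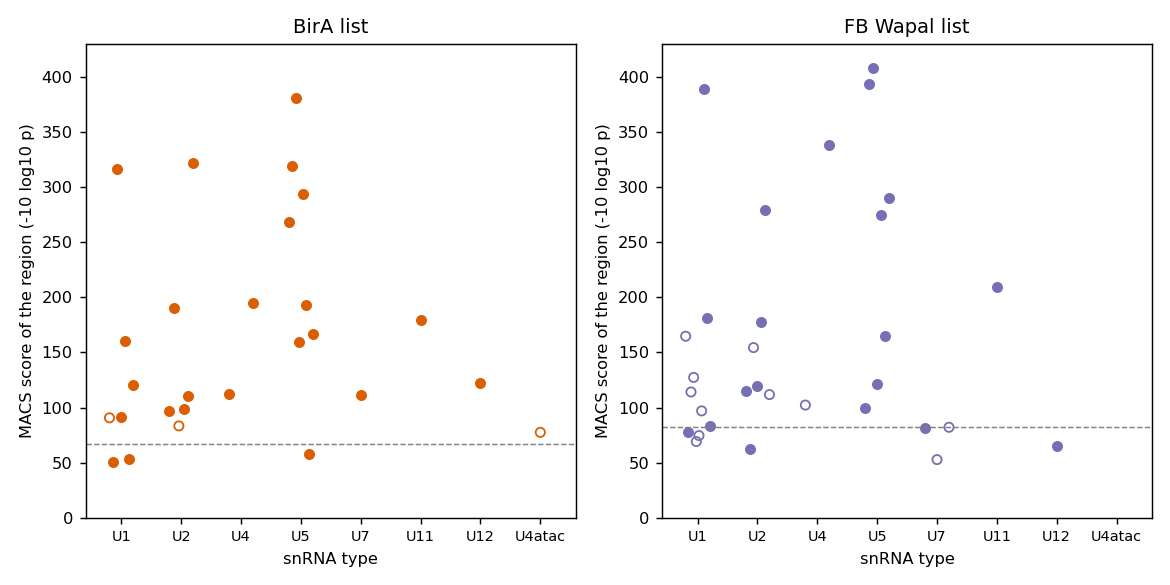
MACS score, as −10 log10 of the p-value, of each region within 2 kb of an snRNA gene, by type, in the BirA list (left) and the FB Wapal list (right), with filled points for regions that overlap the other list and a dashed line at the median of the whole list. The highest points are U5 regions in both lists, at 381 and 408.

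Among the U1 genes, whose RNA starts splicing by pairing with the 5' splice site, the BirA regions fell on 2 neighbouring genes of chromosome 11 and on 1 gene each in clusters of chromosomes 3 and 12. At U1 chr11:87236369-87236532 the BirA regions scored 317 and 91.8 and the FB Wapal region 389, and at U1 chr11:87240218-87240381 the BirA regions scored 160 and 53.4 and the FB Wapal region 181. The U1 gene starting at position 55797769 of chromosome 12 had a BirA region of score 120 and an FB Wapal region of 83.3. At both genes of chromosome 11 the BirA region on the upstream side had the higher score. The U1 gene starting at 96132348 of chromosome 3 was weaker, with a BirA score of 50.9 over the end of the gene, another of 90.6 that ended 911 bp away and does not overlap an FB Wapal region, and an FB Wapal score of 78.1.

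Among the U2 genes, whose RNA recognises the branch site, the highest BirA score was 322 at U2 chr12:60141322-60141512, the region ranking 3 of 266, with an FB Wapal score of 279. The gene starting at 83085000 of chromosome 11 followed with 190 in BirA, ranking 17 of 266. Its FB Wapal region scored 62.4, ranking 6404 of 8497. The remaining scores were lower. The genes starting at 101519552 and 101488680 of chromosome 11 had BirA scores of 110 and 98.5 and FB Wapal scores of 178 and 120, and the gene starting at 72272814 of chromosome 1 had 96.7 and 115. The gene starting at 101466164 of chromosome 11 had a BirA region, of score 83.3, and no FB Wapal region within 2 kb.

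The U4 RNA, which keeps U6 inactive until the spliceosome is activated, had BirA regions at 1 pair of genes on chromosome 5. These were U4 chr5:115939468-115939608 and U4 chr5:115940263-115940403, which lie in tandem within 2 kb and share their regions. The BirA regions scored 112 and 194 and the single FB Wapal region across both scored 338. The pair was counted as 2 genes, and counting genes within 2 kb once gave 22 in place of 23 with a BirA region.

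The U5 genes with a BirA region, whose RNA aligns the exons for ligation, lay on 3 chromosomes, and each of the 7 had a region in both lists. On chromosome 4, within a cluster of 3 copies, the gene starting at 116862547 had a BirA score of 381 and an FB Wapal score of 408, the gene starting at 116883449 had 294 and 275, and the gene starting at 116875133 had 159 and 122. On chromosome 1 the genes starting at 194571765 and 173433179 had BirA scores of 319 and 268 and FB Wapal scores of 394 and 99.5. On chromosome 9 the gene starting at 65044379 had 193 and 165, and the gene starting at 65049533 had BirA regions of 167 and 58.0 and an FB Wapal region of 290. The order of the genes was thus not the same in the 2 lists, and the U5 gene at 173433179, with rank 7 of 266 in BirA, ranked 3007 of 8497 in FB Wapal. The 3 U5 genes without a region lie on chromosomes 14, 17 and 19, each with no other U5 gene within 50 kb. The genes of chromosome 1, which had regions, also have no other U5 gene within that distance.

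The RNAs of the minor spliceosome had 1 gene each with a BirA region. U11 chr4:131825995-131826128, which recognises minor 5' splice sites, had a BirA score of 179 and an FB Wapal score of 210. U12 chr15:82980074-82980224, the minor counterpart of U2, had 122 and 65.5, and U4atac chr1:120355718-120355842, the minor counterpart of U4, had a BirA score of 77.5 and no FB Wapal region. U6atac, their partner, which was not among the genes chosen, had a BirA region at 1 of 28 genes, of score 150. U7 chr6:124691243-124691304, which pairs with histone pre-mRNA downstream of the cleavage site, had 111 in BirA and 81.3 in FB Wapal. The BirA regions of U12, U4atac and U7 each contained the start of a protein-coding gene's transcript, those of Poldip3, 2900060B14Rik and Grcc10, as did those of the U2 gene starting at 101488680 with Rdm1 and of the U5 gene starting at 173433179 with Refbp2, so that the 2 kinds of gene cannot be told apart there. A coding start lay within 2 kb of 8 of the 27 BirA regions (29.6%), beside 33.9% of the 239 elsewhere.

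The BirA regions mostly covered the start of the gene and the bases upstream of it. Of the 23 genes, 22 shared a base with a BirA region, and at 19 the region covered the first base. Taking the BirA region of the highest score at each gene, its centre lay upstream of the start at 17 of 23, with a median of −94 bases (−1268 to 792). At 8 genes the upstream region ended 36 to 46 bases past the start, inside the gene, and at 3 of these, the 2 U1 genes of chromosome 11 and the U5 gene starting at 65049533, a further region began 132, 121 and 79 bases past it. At 20 of the 21 genes with regions in both lists, all BirA regions lay inside the FB Wapal region.

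**Figure D3:**
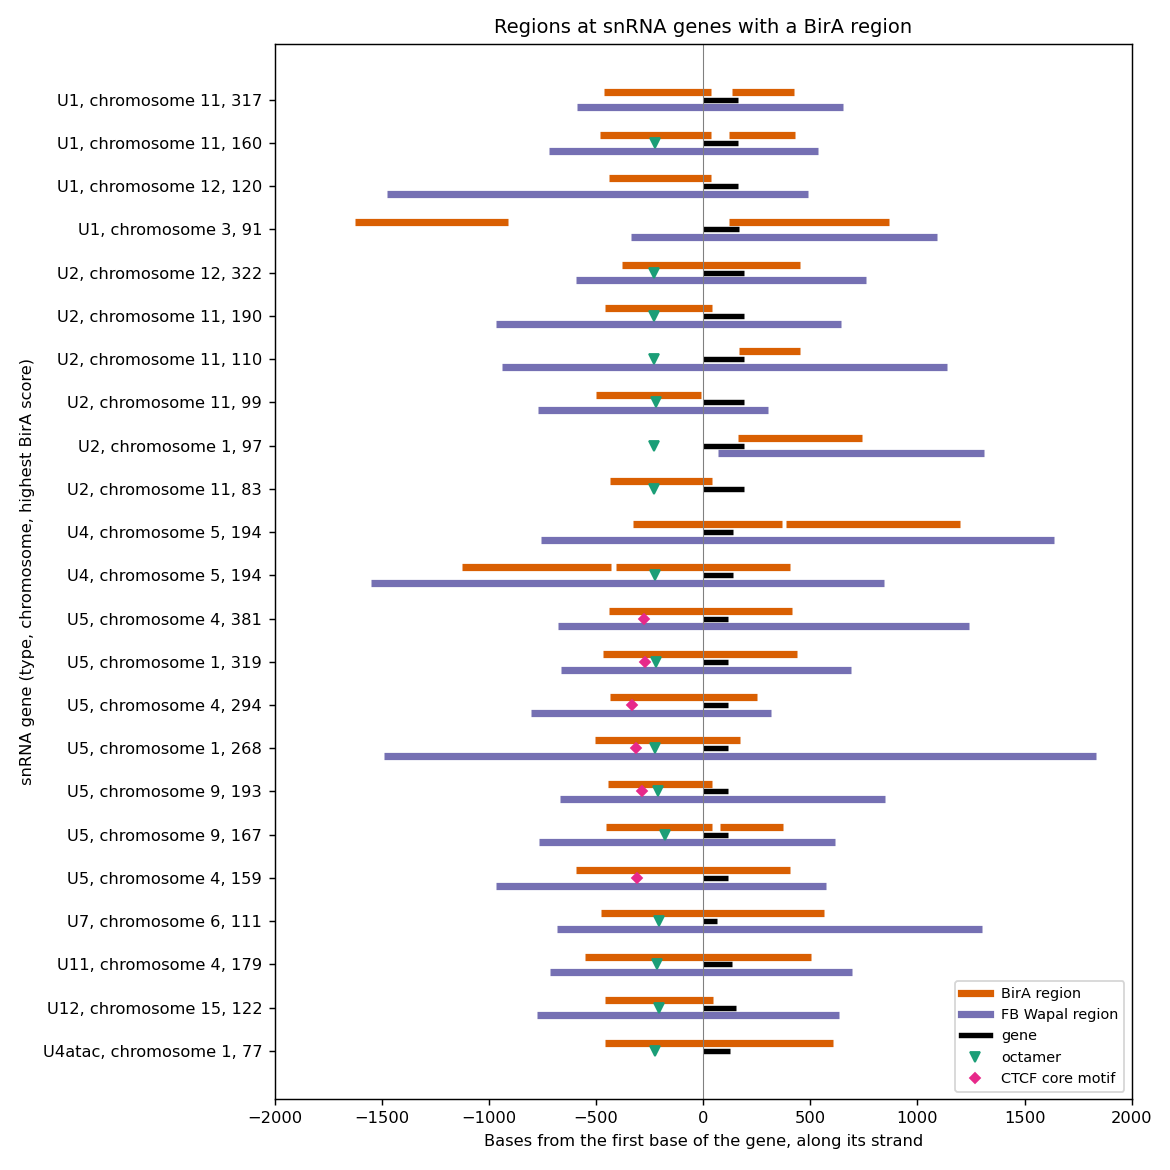
Extent of the BirA (orange) and FB Wapal (purple) regions at the 23 snRNA genes with a BirA region, in bases from the first base of the gene along its strand, with the gene in black, the octamer as a green triangle and matches to the CTCF core motif in the 500 bases upstream as pink diamonds. The regions are centred near the start of the gene, and within those 500 bases the pink diamonds occur at U5 genes alone among the 23.

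The reads were aligned by the authors only where their place in the genome was unique, and snRNA genes are repetitive. The share of 49-base windows (the read length) that occur once in mm9 was therefore computed. Only exact matches were counted, while the authors' alignment allowed mismatches, so a window unique here may not have aligned uniquely. Within 2 kb of the gene at least 50% of the windows were unique for 421 of the 438 genes. Windows on the gene were all those sharing a base with it, so some run past its ends. Windows lying wholly inside the gene were not counted apart. The median share of unique windows on the gene was 70.9% for genes with a BirA region, against 100% for genes without. In the 500 bases upstream the median was 100% in both. At the 8 genes where the upstream region ended inside the gene, 39.3 to 70.9% of the windows on the gene were unique. The part of unique alignment in the position of the regions was not tested.

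The genes with a BirA region were mostly close to the reference sequence of their RNA, and most had letters known from snRNA promoters upstream. Identity to the reference copy of the type (the most common sequence, or else the copy with the highest mean identity to the others) had a median of 99.4% (77.8 to 100%) for the 23 genes and of 73.8% (40.8 to 100%) for the 415 without. The exception at 77.8% was the U7 gene, since for U7 the reference copy so chosen is another gene, on chromosome 15, that has no region in either list. The octamer ATGCAAAT, on either strand, stood within 300 bases upstream of 16 of the 23 genes (69.6%), of 19 of the 415 (4.58%) and of 2.39% of all annotated genes. At the 16 genes with a BirA region its place varied little, from −231 to −179 with a median of −225. The 3' box, read as GTTTAAA with 0 to 3 bases between GTTT and AAA, was found within 60 bases downstream of 9 of 23 (39.1%), of 14 of 415 (3.37%) and of 2.77% of all genes. A match describes letters and is no evidence that a factor was bound.

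The stretch from −80 to −36, where the proximal element lies, shows a further shared feature, the letters ACC within the bases −60 to −55, which are in capitals. In genes with a BirA region, 1 of each type, they read as follows.
U1, chr11:87236289-87236333, plus strand: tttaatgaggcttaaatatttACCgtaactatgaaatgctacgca
U2, chr12:60141242-60141286, plus strand: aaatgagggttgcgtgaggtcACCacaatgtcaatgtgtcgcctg
U4, chr5:115940183-115940227, plus strand: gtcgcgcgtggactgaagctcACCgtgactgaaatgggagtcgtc
U5, chr4:116862467-116862511, plus strand: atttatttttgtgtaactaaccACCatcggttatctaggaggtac
U7, chr6:124691340-124691384, minus strand: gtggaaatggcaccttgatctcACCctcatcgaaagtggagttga
U11, chr4:131826164-131826208, minus strand: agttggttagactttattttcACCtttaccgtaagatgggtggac
U12, chr15:82979994-82980038, plus strand: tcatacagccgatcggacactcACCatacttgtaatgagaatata
U4atac, chr1:120355878-120355922, minus strand: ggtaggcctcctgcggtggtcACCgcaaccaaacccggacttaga

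The ACC block was found at 20 of the 23 genes (87.0%), at 30 of the 415 without a BirA region (7.23%) and at 5.14% of all annotated genes. The block was chosen after these sequences were seen. Copies without a BirA region lack it in 3 of the 4 examples, all within 10% of the reference sequence of their RNA, while the U1 copy of chromosome 12 keeps it.
U1, chr12:55820349-55820393, minus strand: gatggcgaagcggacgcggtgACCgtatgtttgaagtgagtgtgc
U1, chr3:18077661-18077705, minus strand: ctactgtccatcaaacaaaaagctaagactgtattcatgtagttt
U2, chr8:53422495-53422539, minus strand: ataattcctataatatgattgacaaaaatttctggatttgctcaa
U5, chr14:96844094-96844138, plus strand: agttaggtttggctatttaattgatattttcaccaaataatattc

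The whole arrangement can be read in the promoter of the U2 gene of chromosome 12 with the highest BirA score of its type, from 250 bases before to 50 bases after its start, with the octamer, the ACC block and the first 6 bases of the RNA in capitals.
U2, chr12:60141072-60141371, plus strand: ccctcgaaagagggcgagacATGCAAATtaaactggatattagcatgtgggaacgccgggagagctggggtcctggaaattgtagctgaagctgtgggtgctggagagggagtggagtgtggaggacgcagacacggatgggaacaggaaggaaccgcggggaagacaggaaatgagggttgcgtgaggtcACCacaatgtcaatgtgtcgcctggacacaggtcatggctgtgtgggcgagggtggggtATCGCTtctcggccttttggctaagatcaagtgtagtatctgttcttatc

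Identity of the RNA, the block and unique sequence together sorted most of the genes. Of the 64 genes with at least 90% identity, 19 had the ACC block and at least 50% unique windows in the 500 bases upstream, and 18 of these 19 had a BirA region. The exception was the U2 gene starting at 101507054 of chromosome 11, with 52.4% unique windows upstream and 0.0% on the gene. Another 14 had the block but fewer than 50% unique windows, and 1 of them had a region, the U1 gene starting at 96132348 of chromosome 3 with 40.3%. The remaining 31 had no block though at least 50% of their windows upstream were unique, and 3 of them had a BirA region, at U2 chr11:101488680-101488870, U4 chr5:115939468-115939608 and U5 chr4:116875133-116875248. Among genes under 90% identity, 1 of 17 with the block, the U7 gene, and 0 of 357 without it had a BirA region. The limits of 90% and 50% were set after the values were seen, so these counts are a description.

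**Figure D4:**
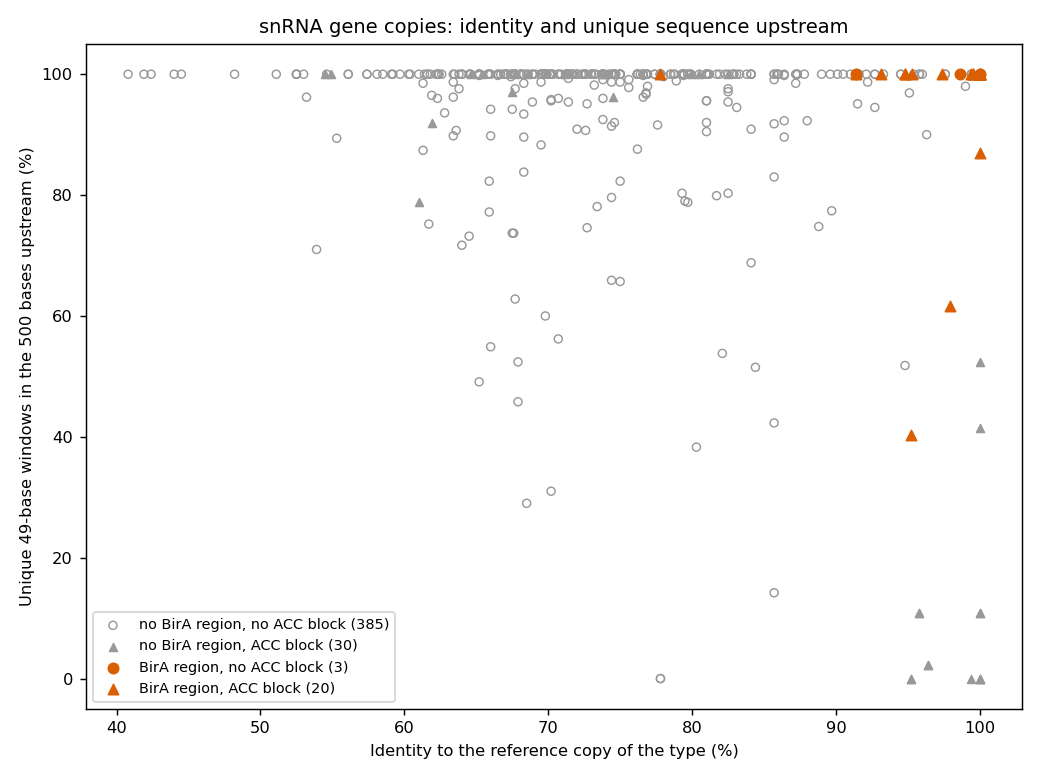
Share of unique 49-base windows in the 500 bases upstream (y axis, %) against identity of the gene to the reference copy of its type (x axis, %) for the 438 snRNA genes, with triangles for genes with the ACC block and orange for genes with a BirA region. Orange points gather at the upper right, and grey triangles at high identity lie low, where few windows are unique.

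In the U1 clusters of chromosomes 12 and 3, most copies with at least 90% identity and the block had few unique windows upstream. On chromosome 12, 7 U1 copies with at least 90% identity and the block lie between 55797769 and 55839609, 1 of which had a BirA region. The other 6 had 0.0 to 10.8% unique windows upstream and 0.0 to 23.1% on the gene. On chromosome 3, 7 such copies lie between 96132348 and 96292816, again with 1 that had a region. The remaining 6 had 0.0 to 10.8% upstream and 0.0% on the gene. For these 12 copies the lists can hardly show whether a region was present on the gene or in the 500 bases upstream. Within 2 kb 0.777 to 56.6% of their windows were unique, so a region further out could have been seen at some.

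Upstream of most U5 genes with a BirA region lay a match to the CTCF core motif at a similar place. This motif (12 bases, with at most 1 mismatch, on either strand) lay in the 500 bases upstream of 6 of the 7 U5 genes with a BirA region, of 0 of the other 16 genes with a BirA region, of 0 of the 3 U5 genes without one and of 13 of the 412 other genes without one (3.16%), while 6.19% of all annotated genes had it. At all 6 U5 genes it stood on the strand opposite to the gene, from −332 to −274 bases from the start, inside both the BirA and the FB Wapal region. CTCF is the DNA-binding protein at many cohesin sites. The matches, in capitals with 8 bases on each side and read on the strand of the motif, are as follows, with the place given for the printed bases.
U5, chr1:173433589-173433616, plus strand: ctgggcggCCACCAGGGGTCagagcgaa
U5, chr1:194571483-194571510, minus strand: cacggccaCCGCTAGGGGGCggagcgga
U5, chr4:116862261-116862288, minus strand: ccgagctgCCGCCAGAGGGCagtgcaga
U5, chr4:116874817-116874844, minus strand: ctgagctaCCATTAGGGGGCaggacgaa
U5, chr4:116883109-116883136, minus strand: tgggctgaCCACCAGGGGGCagtacaaa
U5, chr9:65044760-65044787, plus strand: cggctgggCCACCAGAGGGCgacgccca

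The matches of the U5 genes starting at 116883449 and 65044379 were exact and the other 4 had 1 mismatch. The U5 gene starting at 65049533 of chromosome 9 had none even with 2 mismatches allowed, with a BirA score of 167 and an FB Wapal score of 290, inside the range of the other U5 genes in both lists. The BirA scores of the 6 genes with the motif ran from 159 to 381. The motif was looked for upstream of the U5 genes after it was seen there, and binding of CTCF was not measured in these libraries. Over whole regions, the motif was found in 7 of the 27 BirA regions at snRNA genes (25.9%) and in 25.1% of those elsewhere, so the genes as a group did not stand apart.

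The 11 FB Wapal sites that remained after removal of BirA regions differed from those shared with BirA in the same direction as over the whole list. They had a median score of 102 (52.7 to 165) and a median width of 951 bp, beside 172 (62.4 to 408) and 1420 bp for the 20 regions shared with BirA. Over the whole list the medians were 81.4 and 812 bp for all sites left, and 120 and 1070 bp for all 174 regions shared. A match to the CTCF core motif stood in 10 of the 11 (90.9%), beside 74.5% of all 8323 sites left. It stood in 8 of the 20 shared (40.0%), beside 41.4% of all 174 shared. Only the site at U1 chr4:144355530-144355695 shared bases with its gene, with a score of 127, and the others lay 17 to 1832 bp away, with a median gap of 1154 bp over all 11. The highest scores were 165 at the U1 gene starting at 19460253 of chromosome 3 and 154 at the U2 gene starting at 101258903 of chromosome 11, and they lay 1832 and 1762 bp from the gene. The other U1 genes with a site were those starting at 122167645 of chromosome 3 (score 114), 4053492 of chromosome 7 (96.9), 104087256 of chromosome 5 (74.5) and 150338844 of chromosome 4 (69.1), and the other U2 gene was that starting at 29126922 of chromosome 17 (112). The U4 gene starting at 11009408 of chromosome 2 had a site of score 102, and the U7 genes starting at 55094097 of chromosome 15 and 70796473 of chromosome 8 had sites of 82.1 and 52.7. The last, 17 bp from its gene, was the 1 site without the motif. None of these 11 genes had the ACC block and 1 reached 90% identity, beside 50 and 64 of all 438 genes. With 11 genes, these counts do not set them apart from the family. Of the 11 sites, 10 were not on the copy itself.

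The protein genes of snRNA and snRNP production were listed from textbook knowledge, for SNAPc and transcription factors, Integrator, snRNP assembly and snRNP proteins. Of the 54 genes, 1 had a BirA region (1.85%, beside 0.652% of protein-coding genes), Ints4, an Integrator subunit, with a score of 90.4. An FB Wapal region lay within 2 kb of 11 of the 54 (20.4%, beside 14.6% of protein-coding genes), all outside BirA regions, at Pou2f1, which encodes Oct-1, Snapc5, Tbp, Zfp143, Ints3, Ints9, Ints12, Coil, Lsm11, Snrpa and Snrpe. Of the related RNAs, a BirA region lay at 1 of 331 genes of 7SK, an RNA polymerase III product that restrains elongation, (0.302%), with a score of 230 that ranked 10 of 266. BirA regions lay at 3 of 47 genes of U3, which processes rRNA (6.38%), and at 2 of 24 Y RNA genes (8.33%), beside 0.657% of all genes. Within 2 kb of 6 of the 936 U6 genes (0.641%) lay BirA regions, with scores of 78.8 to 263. U6 is transcribed by RNA polymerase III from promoters with a proximal element, but transcription of these copies was not measured. The region of 263 did not overlap its U6 gene, and that of 88.4 was also counted for a U3 gene. The U6 genes starting at 53704775 and 53705472 of chromosome 12 shared a region of 160.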

How the data were processed

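BioChIP-seq of 2 FB Wapal clones, 1 BirA line and 1 input was analysed from 1 region list per ChIP group. The authors sequenced on an Illumina HiSeq 2000, aligned 49-base reads to mm9 with Bowtie, keeping unique alignments, and called regions against input with MACS 1.4.2 at p of 1e-05. The deposited score of each region is 10 times −log10 of its p-value and is not normalized between lists, and the rule that joined the clones is not given in the sources used here. Aligned reads per sample are stated in the study and were not used here, and the files hold no read counts for single regions, so the depth behind each is not known. Genes came from GENCODE release M1 and sequence from mm9. Distances, overlaps, motifs and unique 49-base windows over the assembled chromosomes were computed in Python 3.11.15 with pysam 0.24.0, pandas 2.3.3 and numba 0.67.0, and identity from edit distance over the longer sequence with edlib. Functions were tested on simulated data. No test was made, since each group has 1 list. The members and lists were chosen with earlier results of these data known. The genes named are all with a region in either list for the types other than U1 and U2, and for those 2 types the 5 loci with the highest BirA score, loci with a site left and loci found in 1 list. Alternatives changed the distance, the score minimum, the overlap rule, repeat filtering and the counting of neighbouring genes. The sequence of 1 RNA is not reported here.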

Additional observations from a re-analysis of the deposited data

How the results depend on the processing

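Of the 28 alternatives, 22 kept the count within 1.5 times the reported one. With distances of 0.5 or 5 kb, overlap of at least 1 bp, distance from the gene start, a score of at least 100, unique sequence alone or neighbouring genes counted once, the genes with a BirA region numbered 18 to 23. A score of at least 100, which leaves 68 BirA and 2987 FB Wapal regions in the lists, lowered the genes with an FB Wapal region from 32 to 21, the FB Wapal regions at snRNA genes from 31 to 20, those shared with BirA from 20 to 12 and the genes with a site left from 11 to 6. Requiring BirA regions to cover at least 50% of an FB Wapal region lowered the shared regions from 20 to 11 and raised the genes with a site left from 11 to 20, since fewer regions were then removed. No paired analysis was possible because each group has 1 list with no replicate values, and no replicate could be left out for the same reason. The lists give no reads for single regions, so their precision is not known, and copies without unique windows cannot be judged.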
